A study of Mus musculus with 24 samples.

Results

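Delayed postconditioning was compared with ischemia-reperfusion alone on 6 of the 24 2-colour arrays of a study of the mouse heart. These 6 arrays were chosen by their labels alone: each carried RNA from the ischemic region of hearts given the delayed protocol, and RNA from the ischemic region of unconditioned hearts in the other channel. All hearts came from C57BL/6 mice that were anesthetized and had a coronary artery occluded for 40 min and then reperfused for 60 min, which is called IR when nothing else was done. In the delayed group (Post30), 3 cycles of 1 min of occlusion and 1 min of reflow were given 30 min into reperfusion. The labels number 3 replicates, each hybridised in both dye orientations, and the orientations were averaged to give n = 3. The other groups used here received the same cycles 1 min into reperfusion (PostC) or 10 min before the occlusion (PreC), or were IR hearts sampled outside the ischemic region (NonIschemic), each with 6 arrays against IR RNA. The labels do not say whether a replicate number is 1 heart or a pool, and no group is a heart without occlusion. The p-values therefore cover only the spread between replicates as deposited, and that spread may be technical.

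Restoring blood flow rescues ischemic muscle and also injures it, through calcium overload, oxidant production and opening of the mitochondrial permeability transition pore. Brief interruptions of flow around reperfusion limit this injury in animal hearts and act through receptors, survival kinases and mitochondria. Delayed postconditioning asks whether such cycles still act when they come well after flow has returned. The data here are transcript levels at the end of reperfusion. In tissue RNA, fewer cells of a type and less of a transcript per cell cannot be told apart.

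The arrays carried 16463 mouse probes. No file gives gene names for the probe IDs, and the mouse gene table of assembly GRCm38.p6 held 0 of them. The probes are therefore described by their measurements, and 2 IDs on each side are given. Markers of heart muscle or of other cell types could not be checked for the same reason. Ratios are log2 values of Post30 over IR, so that -1 is a 2-fold fall. This direction is likely and not settled. Reading the first channel of each file as IR puts the higher background in Cy3 on 6 of 6 arrays. The authors' deposited ratios, described as IR over group RNA, have the same direction under this reading (r from 0.385 to 0.731 after turning their sign). They are also defined by channel number and may share the same numbering. If all files numbered the channels the other way, all signs would be opposite. A probe was called detected when its signal over local background exceeded the 95th percentile of the empty spots. On the 6 arrays 32.4% to 41.4% of probes were detected in the Post30 channel and 33.1% to 47.4% in the IR channel. In all 6 arrays and both channels, 4782 probes (29.0%) were detected, and 8072 (49.0%) were not detected on any Post30 array in either channel.

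The mean ratios of the probes were narrowly spread around the array's own centre, which the loess step sets near 0. Their 5th and 95th percentiles lay at -0.14 and 0.12, over all probes including those near background. A shift shared by all mouse probes cannot be seen on this scale. For a typical probe the 95% interval of the mean reached 0.13 to either side. At least 1.5-fold differences in the mean occurred for 30 of 16461 probes, 24 lower and 6 higher. Of these 30, only 4 passed the test described next, 22 had the same sign in all 3 replicates, and in 21 the SD between replicates was above 0.3.

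With limma and Benjamini-Hochberg adjustment over all probes at 0.05, 12 of 16461 probes passed, which is 0.0729%. They were 11 lower (0.0668%) and 1 higher (0.00607%) than in IR. Their adjusted p ranged from 0.00254 to 0.0442. Each SE given with limma rests on the spread within all 4 groups, and each SD only on the 3 replicates of its group. An unadjusted p under 0.05 was reached by 1161 probes (7.05%), of which 633 were lower (3.85%) and 528 higher (3.21%). Between adjusted p of 0.05 and 0.1 lay 8 further probes, 3 lower and 5 higher, with mean ratios from -0.50 to 0.38. At 0.1 in all, 20 probes (0.121%) passed, 14 lower (0.085%) and 6 higher (0.0364%). When the spread was taken from the Post30 replicates alone, 8 of the 12 passed, and the ninth-, tenth- and eleventh-largest falls and the rise did not (adjusted p of 0.122, 0.167, 0.279 and 0.272 with limma). No probe passed without Post30 replicate 3 (smallest adjusted p 0.0533 with limma), whereas 7 of the 12 passed without replicate 1 and 7 without replicate 2. Deviations of same-numbered samples went together across the conditioning groups, and with the replicate number as a block 104 probes passed, 81 lower and 23 higher, all 12 among them. That block leaves the shared deviation in the group mean, so its p-values against IR are too small.

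**Figure D1:**
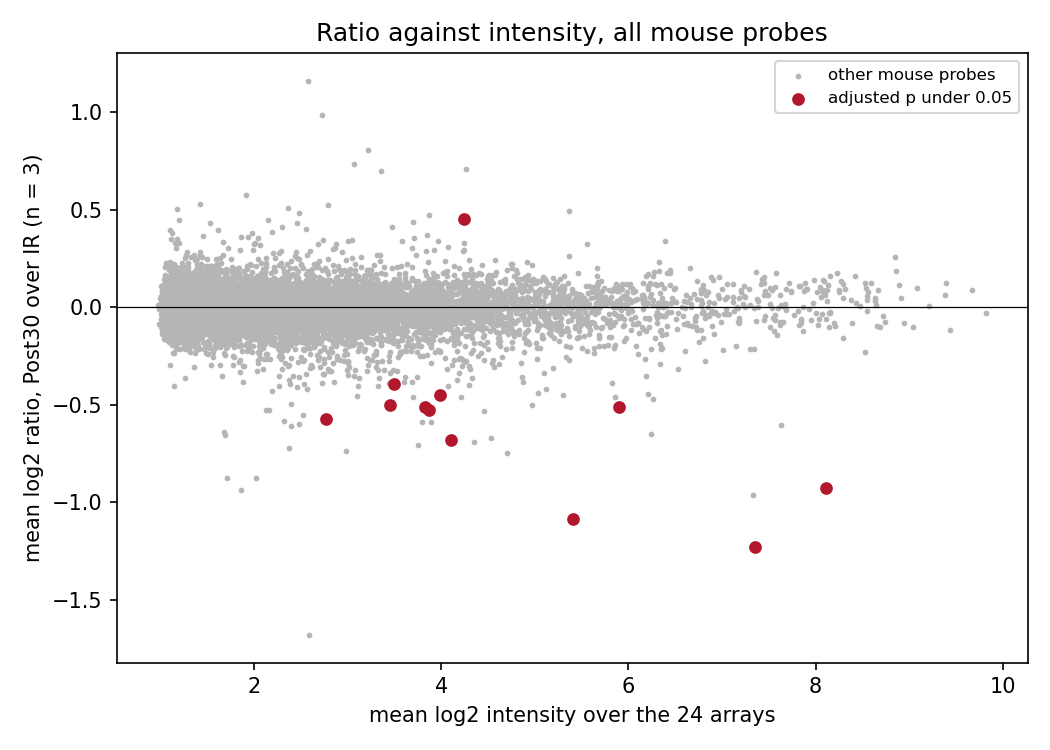
Mean log2 ratio of Post30 over IR (vertical axis, n = 3 replicates) against mean log2 intensity over all 24 arrays (horizontal axis), with 1 point per mouse probe and the 12 probes that passed in red. Most probes lie between -0.14 and 0.12, the passing probes lie at intermediate to high intensity, and several points with larger ratios did not pass.

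All 12 passing probes lay in the upper part of the intensity range, from the 79.7th to the 99.7th percentile, and all were detected on 6 of 6 arrays in the IR channel. In the Post30 channel 11 were detected on 6 of 6 arrays and the other 1 on 4. Each was printed on 1 spot, and the nearest spot numbers among them were 133 apart. Each had the same sign on all 6 arrays, as 1004 probes (6.12%) did in all. The largest gap between the dye orientations of 1 replicate was 0.38 for any of them. When the probes were divided into 4 equal classes of intensity, the brightest class held all 12, and 11.9% of its 4116 probes had an unadjusted p under 0.05. In the dimmest class this share was 2.97%. The median SE was similar in both, at 0.07 and 0.06, while the median absolute ratio was 0.06 and 0.04. The offset added before the log draws ratios near background towards 0, so dim probes were little tested.

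The falls were moderate. The 11 lower probes had a median ratio of -0.53 and stood at 42.7% to 76.0% of IR, or at 132% to 234% if the channels are reversed. Of these, 4 were at least 1.5-fold lower, and 2 of the 4 at least 2-fold. The SD between replicates of the passing probes ranged from 0.07 to 0.28.

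The largest fall was that of Mm::M200009417, a bright probe. Its background-subtracted intensity was 76.1 and 77.1 in the Post30 channels of replicate 1, 82.7 and 104 in replicate 2 and 48.5 and 66.6 in replicate 3. The IR channels of the same arrays read 207 and 133, 270.2 and 238, and 227 and 152. The Post30 signal was thus below the IR signal on every array, in both dyes. After normalization its ratios were -0.94, -1.24 and -1.51 in replicates 1, 2 and 3, with a mean of -1.23 ± 0.28 (SD, n = 3), which is 42.7% of IR, or 234% with reversed channels (SE 0.16, adjusted p = 0.00684 with limma). It scattered around 0 in PreC, at -0.02 ± 0.51, and in PostC, at 0.06 ± 0.43 (SD, n = 3). In NonIschemic it was slightly below 0 in all 3 replicates, at -0.19 ± 0.10 (SD, n = 3). The lowest replicate of these groups, at -0.45, lay above all 3 Post30 replicates.

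Mm::M200013771 had the next largest fall and the steadier replicates. Its ratios were -0.95, -1.22 and -1.08, with a mean of -1.09 ± 0.13 (SD, n = 3), or 47.1% of IR and 212% with reversed channels (SE 0.13, adjusted p = 0.00254 with limma). On the 6 arrays its Post30 signal was 10.0 to 30.6 and its IR signal 25.4 to 81.4. This probe was also below IR elsewhere, at -0.55 ± 0.27 in PostC, -0.35 ± 0.35 in NonIschemic and -0.24 ± 0.33 in PreC (SD, n = 3), none of them past the threshold (adjusted p of 0.0816, 0.256 and 0.754 with limma). Its Post30 replicates lay below all replicates of the other groups.

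**Figure D2:**
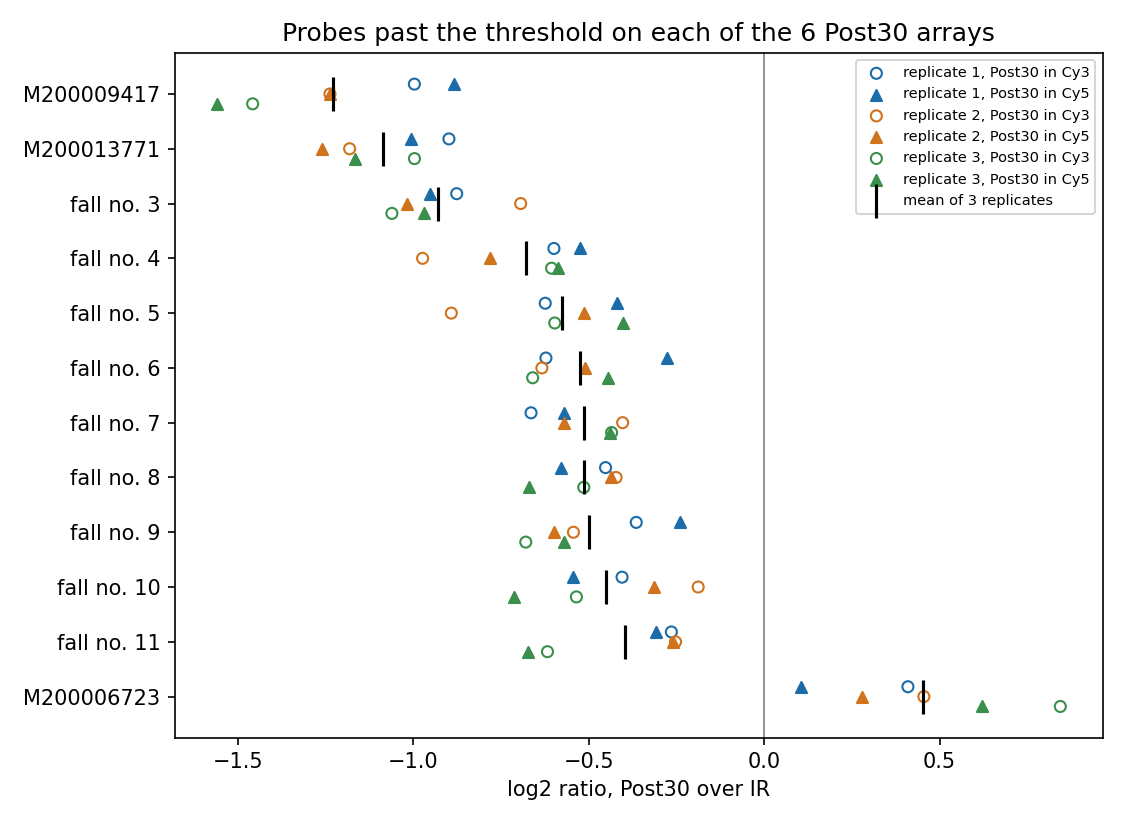
Log2 ratio of Post30 over IR (horizontal axis) of the 12 passing probes on each of the 6 arrays. Colours give the replicate, open circles the arrays with Post30 in Cy3, triangles those with Post30 in Cy5, and black bars the mean. After loess all 6 points of a probe lie on the same side of 0. The mean of Mm::M200006723 lay below 0 when scaled to the control probes. Unnamed probes are numbered by the size of their fall.

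The third-largest fall belonged to one of the brightest probes on the array, at the 99.7th intensity percentile. Its ratios were -0.91, -0.86 and -1.02, with a mean of -0.93 ± 0.08 (SD, n = 3; SE 0.13, adjusted p = 0.0114 with limma). Of the 12 it had the smallest difference from early postconditioning, where its ratios were -0.83, -0.87 and -0.70 with a mean of -0.80 ± 0.09 (SD, n = 3). The PostC value missed the threshold narrowly (adjusted p = 0.0537 with limma). The difference between Post30 and PostC was -0.13, with a 95% interval from -0.53 to 0.27, and the replicates overlapped. In PreC the probe had no common direction, at -0.49, 0.12 and 0.52. In NonIschemic it was below IR in all 3 replicates, at -0.20, -0.68 and -0.57.

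The fourth- to seventh-largest falls and the ninth had means of -0.68, -0.58, -0.53, -0.51 and -0.50. The fourth had ratios of -0.56, -0.88 and -0.60. The fifth, which was the dimmest of the 12, had ratios of -0.52, -0.70 and -0.50. Both varied less between replicates than their distance from 0. The sixth had ratios of -0.45, -0.57 and -0.55 and the smallest SD of the 12, at 0.07. Its dye orientations lay up to 0.34 apart, with the larger fall where Post30 was in Cy3 in all 3 replicates. The seventh had ratios of -0.62, -0.49 and -0.44. The ninth, at -0.30, -0.57 and -0.62, was about as low as the others in replicates 2 and 3 only. All 5 lay between -0.06 and 0.07 in PostC and between -0.17 and -0.03 in PreC, as means of 3 replicates. In NonIschemic the replicates of the fourth overlapped those of Post30.

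The eighth-largest fall had ratios of -0.52, -0.43 and -0.59, with a mean of -0.51 ± 0.08 (SD, n = 3; SE 0.06, adjusted p = 0.00254 with limma). It was above IR in all 3 PostC replicates, at 0.26, 0.12 and 0.09, and below IR in PreC, at -0.27, -0.28 and -0.21. The 3 conditioning groups were thus in separate ranges at this probe. Over all probes, Post30 ranges did not overlap those of PreC in 10.5% and those of PostC in 9.92%. The difference from PreC at this probe, -0.26, did not pass (adjusted p = 0.973 with limma).

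Replicate 3 lay farthest from 0 in 7 of the 12 passing probes, replicate 2 in 4 and replicate 1 in 1. The 7 included the tenth- and eleventh-largest falls and the single rise. Replicate 3 also had the lowest detection in the Post30 channel, at 32.4% and 32.7% of probes on its arrays. Its dye orientations correlated least, with r of 0.0958. How far this bears on the calls was not tested. The tenth had ratios of -0.48, -0.25 and -0.62 and a mean of -0.45 ± 0.19 (SD, n = 3). It was also below IR in every replicate of PreC, PostC and NonIschemic, with means of -0.17, -0.15 and -0.28, and its Post30 range overlapped that of NonIschemic. The eleventh had ratios of -0.29, -0.26 and -0.65 and a mean of -0.40 ± 0.22 (SD, n = 3), against 0.12 ± 0.05 in NonIschemic. Its replicates 1 and 2 were close to each other and replicate 3 stood apart.

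The single higher probe, Mm::M200006723, had ratios of 0.26, 0.37 and 0.73, with a mean of 0.45 ± 0.25 (SD, n = 3). This is 137% of IR, or 73.1% with reversed channels (SE 0.07, adjusted p = 0.0353 with limma). With the spread of the Post30 replicates alone it did not pass (adjusted p = 0.272 with limma). It lay below 0, at -0.16, when scaled to controls 1DR to 6DR described below. Its Post30 signal was 14.3 to 24.2 and its IR signal 12.8 to 19.6 on the 6 arrays. It lay near 0 in the other groups, at -0.02 ± 0.04 in PreC, 0.01 ± 0.09 in PostC and -0.06 ± 0.09 in NonIschemic (SD, n = 3). It did not pass under median centring, at 0.23 (adjusted p = 0.3 with limma). The next higher probe that kept its sign on all 6 arrays, Mm::M200015280, had ratios of 0.28, 0.47 and 0.39 and a mean of 0.38 ± 0.10 (SD, n = 3), and did not pass (adjusted p = 0.0673 with limma). It was dim, with a Post30 signal of 1.74 to 2.97, and lay at 0.29 ± 0.14 in NonIschemic (SD, n = 3).

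Delayed postconditioning was then set against the protocols with the same cycles at other times. These comparisons use the same Post30 arrays that selected the 12 probes, and every group was measured against IR RNA, so the values below describe those probes and are not independent evidence for them. Among all 16460 probes, 1 differed between Post30 and PostC (0.00608%), and 765 (4.65%) had an unadjusted p under 0.05. It was the probe with the eighth-largest fall, which had a log2 difference, Post30 minus PostC, of -0.67 (SE 0.09, 95% interval -0.85 to -0.49, adjusted p = 0.0241 with limma). The call ended when any 1 of the 6 replicates was left out, and with an offset of 50, plain subtraction or median centring. The sixth-largest fall came next among the 12, at -0.55 (adjusted p = 0.0539 with limma). With the replicate number as a block, 3 probes passed, all lower in Post30 (smallest adjusted p = 0.0115 with limma). In a difference between groups the deviation shared by a replicate number cancels. The reservation made about the block against IR therefore does not hold here.

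Between Post30 and PreC, 0 of 16457 probes passed with limma (smallest adjusted p = 0.384), and 768 (4.67%) had an unadjusted p under 0.05. With the replicate number as a block, which suits this difference too, 2 passed, both lower in Post30 (smallest adjusted p = 0.00204 with limma). For a typical probe the 95% interval of either difference, unadjusted for the number of probes, reached 0.19 to each side. This is not a limit of detection, since far larger differences did not pass without the block. At Mm::M200009417 they were -1.29 against PostC and -1.21 against PreC (adjusted p of 0.225 and 0.384 with limma). Early postconditioning and preconditioning themselves gave 0 probes past the threshold against IR with limma, with 2233 (13.6%) and 1126 (6.84%) at an unadjusted p under 0.05. A probe past the threshold in Post30 and not in another group is not thereby shown to differ between them.

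The 12 probes were all farther from IR in Post30 than in PreC, PostC or NonIschemic. The 11 lower probes had a median ratio of -0.53 in Post30, 0.01 in PostC, -0.09 in PreC and -0.16 in NonIschemic. The replicate range of Post30 did not overlap that of PreC in 12 of 12 probes, that of PostC in 11 and that of NonIschemic in 10. Over all probes, ranges did not overlap in 10.5%, 9.92% and 9.62%. Since the 12 were selected for low or high Post30 values, this separation is partly fixed by the selection.

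**Figure D3:**
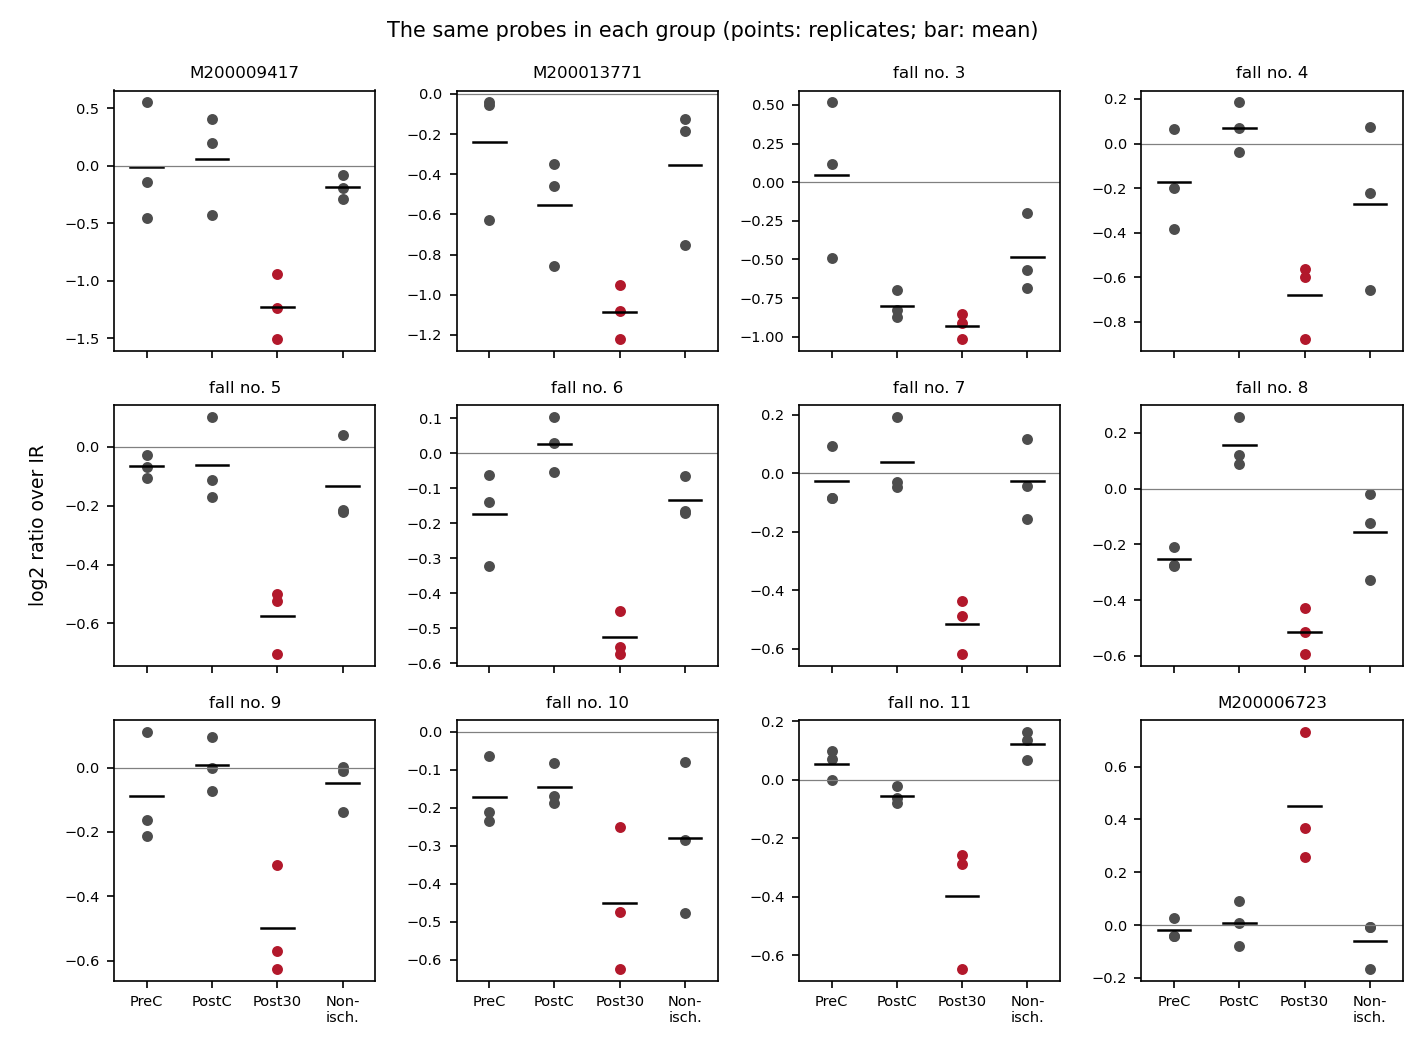
Log2 ratio over IR (vertical axis, scaled separately for each probe) of the 12 passing probes in PreC, PostC, Post30 (red) and the non-ischemic region (Non-isch.). Points are the 3 replicates and bars their mean. The probe with the third-largest fall is near -0.80 in PostC and -0.93 in Post30, whereas the one with the eighth-largest fall is above 0 in PostC and below 0 in Post30.

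Abundant transcripts were compared as a group. Of the 300 brightest mouse probes, 2 passed, both lower, beside 12 of all 16461 probes (0.0729%). An unadjusted p under 0.05 was reached by 34 of the 300, which is 11.3% against 7.05% of all probes. In the brightest of the 4 intensity classes this share was 11.9%, so the 300 did not stand out among bright probes. The 300 had a median ratio of 0.01 and means from -1.23 to 0.34. The 12 mouse probes that were printed on 17 spots each gave 0 calls, and 0 had an unadjusted p under 0.05. Their means ran from -0.21 to 0.08. On these repeated probes single spots within an array had a median SD of 0.10. Their replicate values, which are means over the spots of both arrays, had a median SD of 0.09. Each of the 12 passing probes had a single spot, and its own spot error was not measured.

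Replicates agreed only weakly over the whole array. Ratios of the dye orientations of 1 replicate correlated across probes with r of 0.276, 0.32 and 0.0958 in replicates 1, 2 and 3, and ratios of different replicates with r of 0.071 to 0.0971. These correlations are across probes, which are not independent replicates. The median gap between orientations was 0.12 to 0.15.

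The control probes 1DR to 6DR, which the files do not explain, were higher in the Post30 channel on 6 of 6 arrays. Their mean ratio was 0.52, 0.61 and 0.72 in the 3 replicates, or 0.62 ± 0.10 (SD, n = 3). Other control probes went elsewhere: 1RC lay at -0.97 and 3RC at -2.36, 2RC at 1.76 and 4RC at 3.99, 2NC at 0.18, and 1NC, 3NC and 1PC between 0.03 and 0.06. The probes 1DR to 6DR lay at 0.75 ± 0.05 in PostC and -0.04 ± 0.18 in PreC (SD, n = 3). Under median centring the Post30 mean of 1DR to 6DR was 0.36 ± 0.38 (SD, n = 3), with replicate 1 at -0.07. Scaling ratios to these probes moves all mouse probes down by 0.62 in Post30. All values above are relative to the mouse probes of the array, and the part of this shift in them was not tested.

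**Figure D4:**
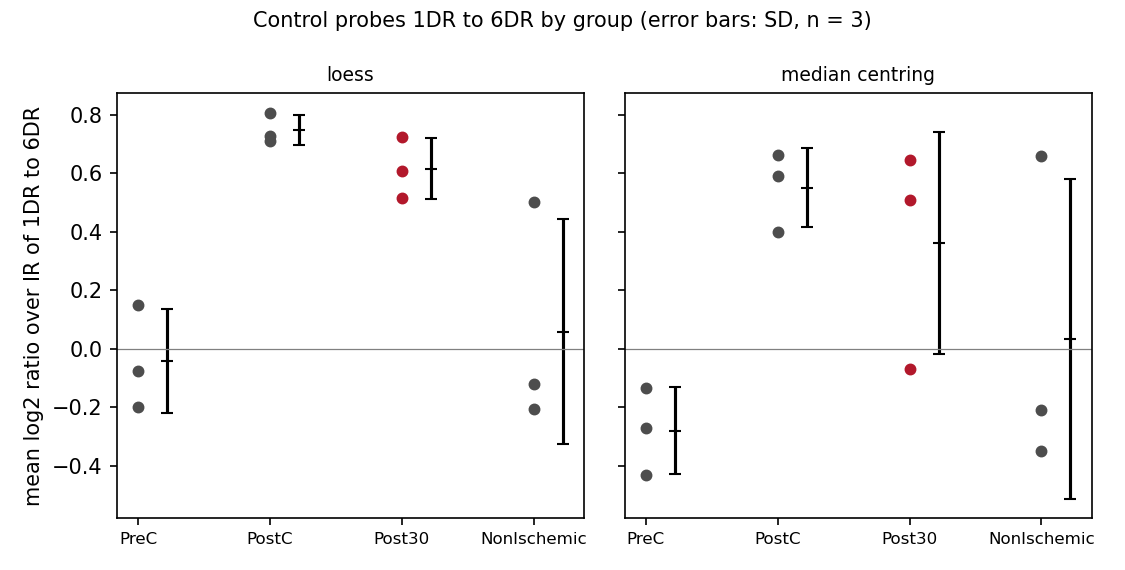
Mean log2 ratio over IR of the control probes 1DR to 6DR (vertical axis) in each group, after loess and under median centring. Points are replicates and error bars are mean and SD (n = 3). After loess all 3 Post30 replicates lie above 0.5, and under median centring 1 lies below 0.

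Counts against IR depended on how background and intensity trends were treated. Without background subtraction 32 probes passed, 23 lower and 9 higher, and in the deposited ratios of the authors 33 passed, 24 lower and 9 higher. All 12 probes were among both sets. Median centring gave 179, 173 lower and 6 higher, with 11 of the 12 among them. With plain subtraction none passed (smallest adjusted p = 0.0786 with limma, and 764 at an unadjusted p under 0.05). With an offset of 50 only the probes with the sixth- and eleventh-largest falls passed. Under all these treatments each of the 12 kept its sign.

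**Figure D5:**
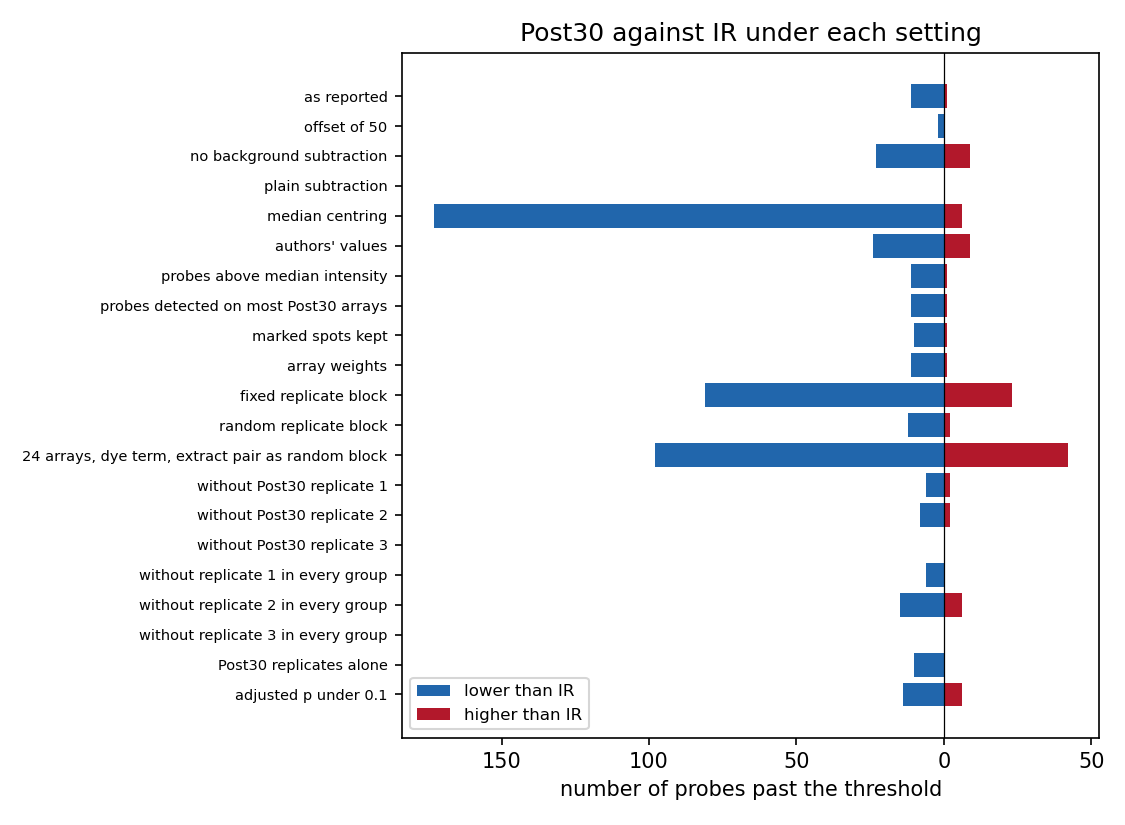
Number of probes past the threshold for Post30 against IR (horizontal axis) under each setting, lower probes to the left in blue and higher probes to the right in red. Lower probes outnumber higher ones wherever any passed. The counts range from 0 with plain subtraction or without Post30 replicate 3 to 179 under median centring, and the scaling to control probes is not drawn.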

How the data were processed

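Total RNA was amplified and coupled to Cy3 or Cy5, per the labels' protocols. Per the file headers, the deposited array files hold foreground and local background intensity of both channels and a quality mark for 17664 spots. Scanner and imaging steps were not given in the sources used here. Besides these, the authors deposited a table of log2 ratios, IR over group RNA, with the intensity trend removed by an unstated method. Its sign was turned for use as an alternative. On the 6 Post30 arrays its medians lay between -0.0072 and 0.011, and it correlated with the ratios used here with r from 0.385 to 0.731.

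Background was corrected with normexp and an offset of 1.03, which is 50 scaled by the largest intensity (1356) over 65535. Ratios were normalized by global loess on mouse probes with limma 3.58.1 in R 4.3.3. Marked spots (3 to 25 per Post30 array) and 1009 control and empty spots were left out. Replicate spots and dye orientations were averaged, and a probe marked in 1 orientation had no value in that replicate, so that 16409 probes had all 3 Post30 values. Group means of the 12 extract pairs of all 4 groups were fitted with lmFit and eBayes, tested against 0 or each other, and adjusted by Benjamini-Hochberg. The labels do not say whether same-numbered arrays share 1 IR extract, so how far the spread of IR hearts enters the test against 0 is unknown.

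Replicate numbers come from the labels. Deviations of Post30 replicates correlated with those of the same number in PreC and PostC with r from 0.232 to 0.396 in 6 of 6 pairs, so the numbers pair these groups. With NonIschemic r was 0.246, 0.378 and 0.0774.

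The IDs printed are the 2 lowest and 2 highest means among probes that passed with the same sign in all replicates, filled up on the higher side by the next probe by unadjusted p with 1 sign on all 6 arrays. The arrays were picked by label. That choice, the settings and the lists were made with earlier results of these data known. Array number limits the precision. Gene lists and cell type markers were not used.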

Additional observations from a re-analysis of the deposited data

Results flagged for a closer look

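The probe with the eighth-largest fall differed between delayed and early postconditioning by a log2 difference of -0.67 in a test of that difference. It lay below IR in 3 of 3 Post30 replicates and above IR in 3 of 3 PostC replicates, and the difference did not pass when any 1 replicate was left out, or with an offset of 50, plain subtraction or median centring.

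At the probe with the eleventh-largest fall, all Post30 replicates lay below IR (mean -0.40) and all NonIschemic replicates above it (mean 0.12). The probe Mm::M200006723 lay above IR in all Post30 replicates (mean 0.45) and at or just below IR in NonIschemic, with replicates at -0.0069, -0.0093 and -0.17. These differences were not tested.

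The control probes 1DR to 6DR stood above 0 in all 3 Post30 replicates, with a mean log2 ratio of 0.62 over IR. Among the single controls the mean ran from 0.39 for 6DR to 0.85 for 1DR. The part of these shifts in the mouse probe ratios was not tested.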

How the results depend on the processing

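The scaling to control probes was chosen after seeing the data. Where a count moved, the cause was not tested. Against IR, where 12 probes passed as reported, the counts were 2 with an offset of 50, 32 without background subtraction, 0 with plain subtraction, 179 under median centring, 33 in the authors' values, 104 with the fixed replicate block, 140 with 24 arrays and a dye term, 20 at an adjusted p under 0.1 and 16410 when scaled to control probes, by construction. Leaving out 1 Post30 replicate gave 0 to 10, the 0 without replicate 3, and leaving out replicate 1, 2 or 3 in every group gave 6, 21 and 0. Restricting the probes, keeping marked spots, array weights, a random replicate block or Post30 replicates alone gave 10 to 14, the last with 8 of the 12 among its 10. Against PostC, where 1 passed, the counts were 0 with an offset of 50, plain subtraction or median centring, 2 without background subtraction, in the authors' values, among detected probes or with a random replicate block, 3 with the fixed replicate block and 10 with 24 arrays. Leaving out 1 replicate gave 0 to 0. Against PreC, where 0 passed, the counts were 2 with the fixed replicate block and 0 with a random replicate block. They were 15 with 24 arrays and 0 to 1 without 1 replicate. The fit with 24 arrays used the extract pair as a random block, with a correlation shared by all probes. It counts the dye orientations of an extract partly as separate replicates, so its p-values may be too small. Scaled to control probes, Mm::M200006723 lay at -0.16 and Mm::M200015280 at -0.24. The control probes lay at 0.36 under median centring. All 12 probes otherwise kept their sign, and signal over background limits the test of dim probes.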

Other observations

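In a small set of probes the 3 Post30 replicates lay over 2-fold apart. There were 99 such probes (0.603%), and 62 of them were detected on 6 of 6 Post30 arrays. Replicate 2 was the lowest in 69 of the 99. Replicate 3 was the highest in 44 and replicate 1 in 37.

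One of these was printed on 17 spots, so each value is a mean over many spots. Its Post30 ratios were -0.31, -1.41 and 1.26 in replicates 1, 2 and 3. In replicate 2, 0 of 17 spots were above 0 on either array, and in replicate 3, 16 of 17 were on each. The SD between replicates was 1.34, and single spots within an array had a median SD of 0.36. It varied in the other groups too, at 0.10, -2.43 and 1.61 in PostC, -1.90, -1.27 and -2.18 in PreC and -1.02, -3.87 and -1.84 in NonIschemic. Its Post30 mean was -0.15, with an adjusted p of 0.982 (limma).

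By detection, 5 probes (0.0304%) were detected on 6 of 6 IR channels and on 0 of 6 Post30 channels, and 0 probes showed the reverse. The IR channel detected more probes than the Post30 channel on 6 of 6 arrays. This was not particular to Post30. The IR channel also detected more on every PreC and PostC array and on most NonIschemic arrays. None of the 5 was among the 12 that passed, and no fold is given for them, since their Post30 level is only a bound.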
